A study of Mus musculus with 2 samples.

Results

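The cells described here are CD4 conventional T cells of the mouse lung, the T helper lineage without the cells in which its regulatory factor Foxp3 was detected. They were picked one by one from raw counts of unique molecular identifiers (UMIs, the tags that mark each captured transcript). A cell needed at least 2 UMIs of the CD3 chains Cd3e, Cd3d and Cd3g together and at least 1 of the coreceptor Cd4. It needed 0 UMIs of the CD8 chains Cd8a and Cd8b1, of the regulatory factor Foxp3, of the recombination genes Rag1, Rag2 and Dntt and of the B cell gene Cd79a, and at most 2 of C1qa, C1qb and C1qc, genes of macrophages. This rule held for 431 of the 27974 cells kept in the series.

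Lungs came from mice aged 5 weeks of 2 genotypes. The control mice, Lkb1f/f, carried floxed Lkb1 (Stk11, a kinase upstream of AMPK) and no Cre. The Cre mice, Nkx2.1 Cre;Lkb1f/f, carried the same floxed alleles with Cre driven from Nkx2.1, a gene of the lung epithelium, so the driver marks epithelial cells and not T cells. The lung cells of 3 mice were pooled before capture and made 1 library per genotype with a droplet kit that reads transcripts at the 3′ end. There is therefore no spread between mice, no test of the genotype was possible, and every interval below covers counting error only. Beyond genotype, the libraries can also differ in dissociation, capture and depth, which cannot be told apart from it.

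CD4 T cells recognise peptides on MHC class II and, once activated, take on effector programmes that are named after their cytokines. Naive cells circulate between blood and lymph nodes under receptors such as Ccr7, while memory cells may settle in tissues such as the lung. In the lung, the Th2 programme of Gata3, Il4, Il5 and Il13 and the IL-33 receptor Il1rl1 (ST2) is known from allergy and helminth infection, and type 2 innate lymphoid cells (ILC2) share much of it without a T cell receptor.

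The control library held 223 members among 12863 kept cells and the Cre library 208 among 15111. The members had a median of 4732 UMIs (range 1610 to 53990) in the control and 3125.5 (948 to 37201) in the Cre library, with medians of 1457 and 1237.5 genes. Their summed UMIs came to 1359048 and 843804. No cell barcode was shared by members of the 2 libraries, although 59 barcodes were shared among all kept cells.

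The genes used by the rule describe the choice and test nothing, but other T cell genes were read as a check of the label. Trac, the constant part of the T cell receptor alpha chain, had a UMI in 81.6% of control and 69.7% of Cre members, against 0.607% and 0.548% of B cells (Cd79a at 2 or more UMIs and no CD3). The costimulatory receptor Cd28 was seen in 87.9% and 79.8% of members and in 0.961% and 1.34% of B cells, and the kinase Lck in 63.7% and 62% of members. Median depth was 3253 and 2201 UMIs in these B cells. The label therefore stood in both libraries.

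At the CD3 threshold, 11 control and 39 Cre members had exactly 2 CD3 UMIs, and 5 and 27 cells with 1 CD3 UMI met every other condition. Trac was detected in 7 of the 11 and 19 of the 39 members just inside, and in 2 of the 5 and 20 of the 27 cells just outside. At the Cd4 threshold, 136 control and 137 Cre members had a single Cd4 UMI, and 362 and 480 cells met all conditions but had none.

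Some members carried the transcripts of another cell type. In 20 control members (8.97%) and 22 Cre members (10.6%), a list of markers of 1 of 8 other lineages took more than 1% of the UMIs. These cells held 22% of the control and 26.5% of the Cre members' UMIs. In the plot of other-lineage markers they sit mostly at high UMI counts. Lung epithelial markers passed 1% in 9 control and 6 Cre members and reached 64.3% and 27.4% of a cell's UMIs. Macrophage and monocyte markers passed it in 7 and 5, neutrophil markers in 7 and 7, fibroblast and smooth muscle markers in 1 and 2, endothelial markers in 0 and 2, and erythroid and platelet markers in 1 and 3. Scrublet, which scores barcodes against simulated doublets, marked 12 control and 8 Cre members, which were kept. The main counts are also given without other lineages, meaning over the 203 control and 186 Cre members in which every such list took at most 1%.

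**Figure D1:**
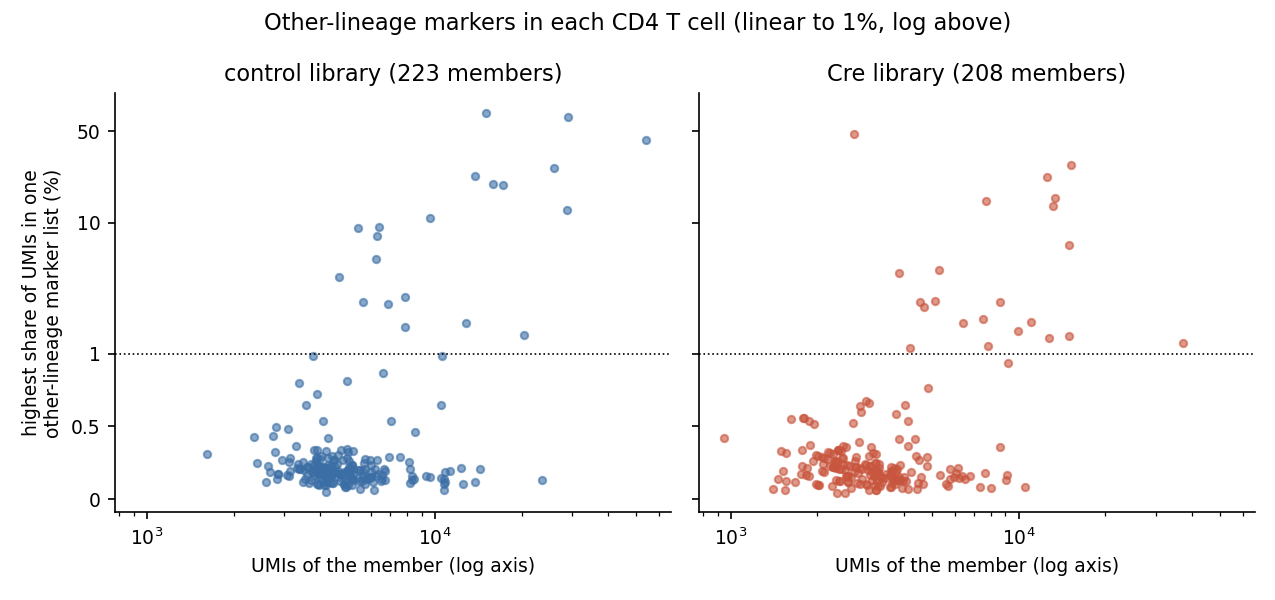
Highest share of a member's UMIs in any 1 of 8 other-lineage marker lists (y axis, percent, linear to 1% and logarithmic above) against the member's UMIs (x axis, log), 1 point per cell, control left and Cre right. The dotted line is 1%, with 20 control and 22 Cre members above it.

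Members made up 1.73% of control cells (exact binomial 95% interval 1.52 to 1.97%) and 1.38% of Cre cells (1.2 to 1.58%), a ratio of 0.794 (0.654 to 0.963). CD8 T cells, chosen by the same rule with Cd8a or Cd8b1 in place of Cd4, went from 4% to 2.67%. Regulatory T cells, which met the member rule but had a Foxp3 UMI, stood at 0.303% (39 cells) and 0.291% (44 cells). With cells thinned to 1000 UMIs before the rule, only 1 control and 3 Cre cells counted as regulatory. A member with no Foxp3 UMI may therefore still be a regulatory cell. Among all CD3 cells the members' share was 18.7% and 17.2%, a ratio of 0.917 (0.756 to 1.11). With cells thinned to 1000 UMIs before the rule, 39 control and 37 Cre cells met it, a ratio of 0.802 (0.497 to 1.29). Without the condition on Cd4 the share was 4.55% in both libraries, with a ratio of 1 (0.895 to 1.12). The lower share of members in the Cre library was thus seen only with the condition on Cd4.

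Levels are given as CPM, a gene's UMIs per 1000000 UMIs summed over the members of a library. Most genes had a higher CPM in the Cre members, with a median Cre/control ratio of 1.22 over the 6626 genes with at least 30 UMIs, a log2 shift of 0.29. The 81 ribosomal protein genes took 31.7% of control and 26.1% of Cre UMIs, and 80 of them lay below the median gene. In B cells their share was 25.8% and 20.9%. Every fold below is therefore relative: the CPM ratio divided by that median, with an exact 95% interval. By this measure 863 genes (13%) were at least 1.5-fold higher in Cre and 758 (11.4%) at least 1.5-fold lower, which is the background for each count of list genes. Without other lineages these shares were 12.2% and 12.1% of 5486 genes.

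Stk11, the floxed gene (chr10:80115803-80130682, GRCm38), had 44 UMIs in the control members (32.4 CPM) and 57 in the Cre members (67.6 CPM), a relative fold of 1.7 (1.13 to 2.59). It was 40 and 43.4 CPM in CD8 T cells and 52.2 and 58.8 CPM in B cells. A 3′ tag may lie outside the floxed part, so this level does not show whether the alleles were recombined. Of 13 measured genes of the LKB1 and AMPK list, Stk11 and its scaffold Cab39 (88.3 and 162 CPM, relative fold 1.5) were higher and the kinase Sik2 (27 and 10 UMIs, 0.487) was lower. Sik2 reached the minimum UMI count only through the control members, so the minimum itself fixed its direction. Of the 12 other genes 2 were higher and none lower. The list's relative median log2 was 0.13.

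Most measured Th2 genes had a higher level in the Cre members. Of the 13 genes of that list with at least 30 UMIs, 11 were at least 1.5-fold higher and none lower, with a median log2 difference 1.16 above that of all genes. Il4, Il5, Il13, Cd200r1 and Calca reached 30 UMIs only through the Cre members, so the minimum itself fixed their direction. Of the 8 other genes 6 were higher. Gata3, the factor that sets the Th2 programme, went from 104 to 256 CPM, a relative fold of 2.02 (1.62 to 2.51). Il1rl1 went from 24.3 to 113 CPM, a relative fold of 3.79 (2.52 to 5.81). After thinning each cell to 1000 UMIs, Il1rl1 was detected in 1.79% of control and 7.73% of Cre members, against 0.0508% and 0.442% of B cells. Gata3 was detected in 9.87% and 16.9% of members and in 0.152% and 0.442% of B cells.

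The cytokines of the list were rare in both libraries. Il13, which drives mucus and airway responses, had 1 UMI in the control and 29 in the Cre members, a relative fold of 38.2 with a wide interval of 6.33 to 1560. Il5, the eosinophil growth factor, had 6 and 31 UMIs, a relative fold of 6.8 (2.79 to 19.9). Il4, which commits naive cells to Th2, had 12 and 20 UMIs (2.19, 1.02 to 4.92). These UMIs came from few cells, since Il13 was seen in 1 control and 7 Cre members and Il5 in 1 and 8.

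Other members of the list act as ligands, receptors and regulators. Tnfsf11 (RANKL), a ligand for antigen-presenting cells and osteoclasts, went from 16.9 to 114 CPM (5.49, 3.46 to 9.07). The epidermal growth factor family ligand Areg went from 76.5 to 192 CPM (2.05, 1.59 to 2.65), while B cells of the same libraries stood at 7.18 and 84.7 CPM. The inhibitory receptor Cd200r1 had 11 and 27 UMIs (3.23), the protease Furin went from 50 to 142 CPM (2.32) and the Notch factor Rbpj from 34.6 to 98.4 CPM (2.32). Calca, which encodes the neuropeptide CGRP, had 2 UMIs in 2 control members and 58 in 12 Cre members, of which 30 came from 2 cells (38.2, 10.1 to 323). In B cells Calca stood at 0.326 CPM (control) and 16.6 CPM (Cre). The chemokine receptor Ccr4 (relative fold 1.49) and Igfbp7 did not reach 1.5-fold in either direction.

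Without other lineages the same comparison gave 10 of 12 genes higher, 1 lower (Igfbp7) and a relative median of 1.34. The folds of the 11 genes and their values without other lineages stand side by side in the plot of folds. The list was chosen with results of these data known, and its count is a description. In CD8 T cells 5 of 8 measured genes of the list were higher and 2 lower (relative median 0.82), beside 8.12% and 9.07% of all genes there. In regulatory T cells the relative median was 1.48, over few cells. Which genes passed the minimum through 1 library only was not worked out for these other cell types.

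**Figure D2:**
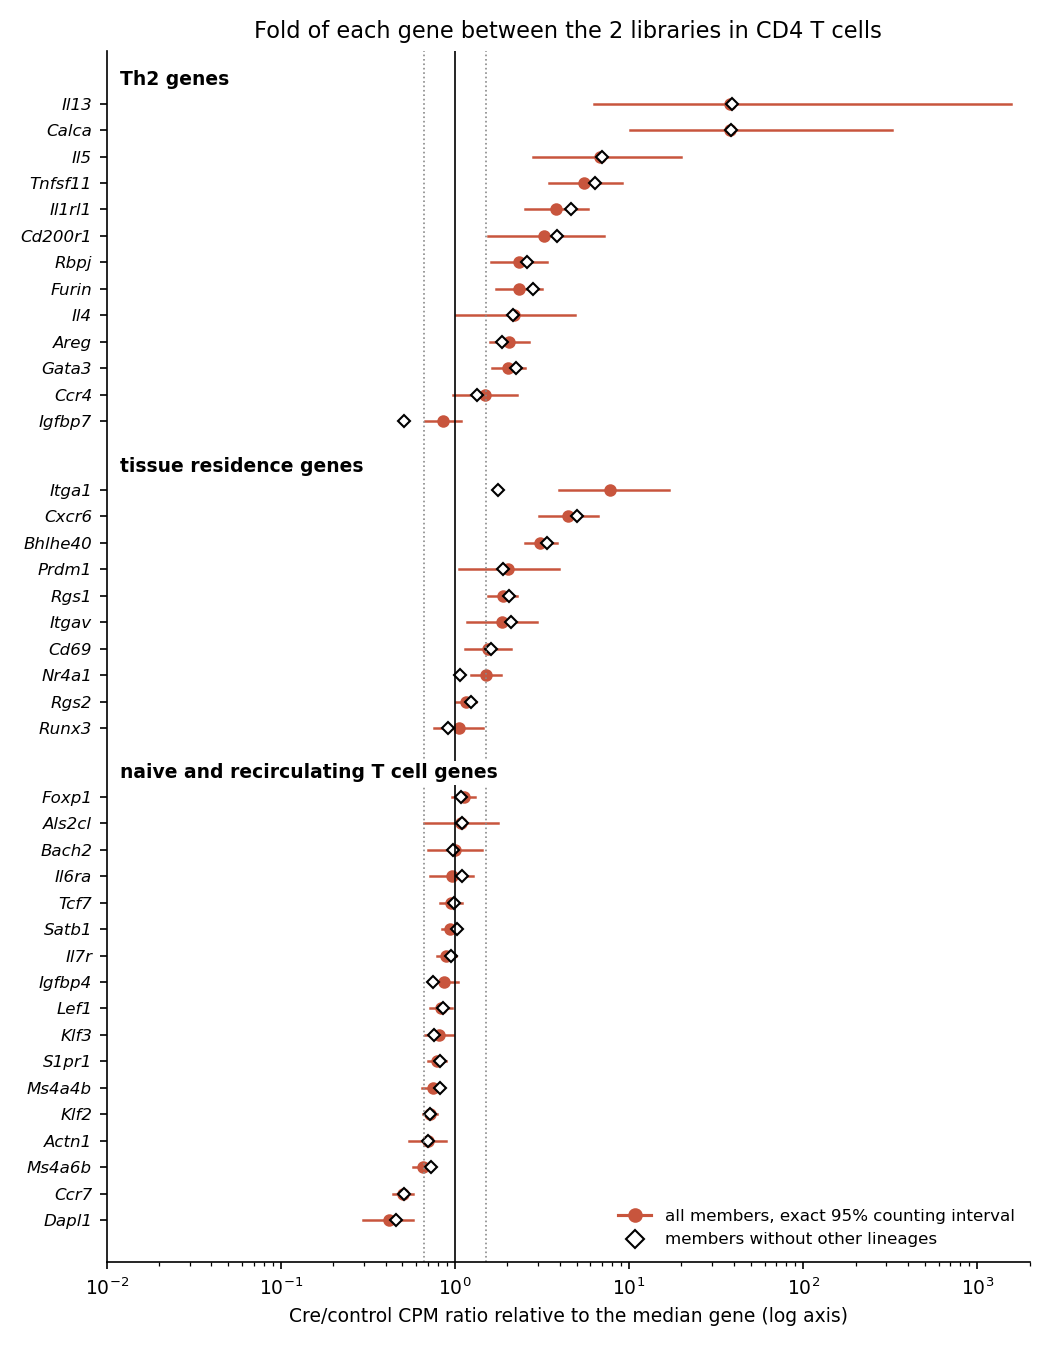
Relative fold (Cre/control CPM ratio divided by the median gene's, log x axis) of every measured gene of 3 lists in the members. Filled points with lines are all members with exact 95% counting intervals, open diamonds are members without other lineages, and dotted lines mark 1.5-fold each way. Il13 has 1 control UMI, and most Th2 and tissue residence genes lie right of 1.5 while Ccr7 and Dapl1 lie left.

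The 250 bases before the start sites of Il5, Il13 and Il1rl1 are printed because these genes had some of the highest folds among the Th2 genes and GATA3 is known to bind GATA motifs. Sequences are from RefSeq (GRCm38.p6), 5′ to 3′ on the gene's strand, with GATA matches in capitals. The motif letters searched were AGATAA or TGATAA or AGATAG or TGATAG, on both strands. Il5 is at chr11:53720544-53720793 on the plus strand, Il13 at chr11:53634703-53634952 on the minus strand, and the first start of Il1rl1 at chr1:40429320-40429569 on the plus strand.
Il5: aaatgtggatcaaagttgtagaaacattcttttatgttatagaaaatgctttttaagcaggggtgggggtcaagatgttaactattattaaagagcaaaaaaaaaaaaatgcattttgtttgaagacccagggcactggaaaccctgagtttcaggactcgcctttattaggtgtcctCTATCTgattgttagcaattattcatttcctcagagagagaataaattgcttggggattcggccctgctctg
Il13: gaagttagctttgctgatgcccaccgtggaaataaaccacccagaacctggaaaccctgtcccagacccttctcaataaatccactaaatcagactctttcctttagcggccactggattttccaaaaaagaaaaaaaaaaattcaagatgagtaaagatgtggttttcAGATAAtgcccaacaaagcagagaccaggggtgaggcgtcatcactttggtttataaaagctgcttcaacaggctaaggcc
Il1rl1: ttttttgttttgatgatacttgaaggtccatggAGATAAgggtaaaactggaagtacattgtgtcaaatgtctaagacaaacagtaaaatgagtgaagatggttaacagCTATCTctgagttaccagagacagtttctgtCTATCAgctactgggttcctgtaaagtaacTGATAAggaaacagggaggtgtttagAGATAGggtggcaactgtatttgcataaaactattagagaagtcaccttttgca

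Il5 and Il13 had 1 match each, and the first start of Il1rl1 had 5. Of the other genes searched, Calca and the first start of Il4 had 1, the second start of Il1rl1 had 1, and the second start of Il4 and the starts of Gata3, Tnfsf11, Cxcr6, Areg and Il2ra had none. A match was present in 26.5% of all 32851 promoters of that length, so a single match is common. A match says only that these letters occur in the window.

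Il1rl1 was carried by few cells. It had a UMI in 12 of 223 control and 30 of 208 Cre members, and both Il1rl1 and Gata3 in 8 (3.59%) and 24 (11.5%). The 30 Cre cells held 25 of the 29 Il13 UMIs, 27 of the 31 Il5 UMIs, 43 of the 58 Calca UMIs and 54 of the 96 Tnfsf11 UMIs. Of these 30, 29 had a UMI of Cd44, an adhesion receptor of activated cells, 29 of the calcium-binding memory gene S100a4 and 29 of the nuclear receptor Rora. Ccr7 was seen in 2 of the 30, against 103 of the other 178 Cre members. Among the 12 control cells with Il1rl1, 11 had S100a4, 7 had Cd44 and 6 had Ccr7.

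Over the members with no Il1rl1 UMI, the Th2 list's relative median was 0.46 and Gata3 had a relative fold of 1.43, below the 1.5-fold line. Tnfsf11 remained at 3.22 and Calca at 21.8 there, the latter from 1 and 15 UMIs. Il5 stood at 0.97, from 6 UMIs in 1 control cell and 4 UMIs in 3 Cre cells, too few to compare. Il1rl1, which made this split, is itself a gene of the list.

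Because ILC2 share these genes, the ILC2 marker list was read in the members. Of its 12 genes 7 are also in the Th2 list, and 8 of 8 measured genes were higher in Cre (relative median 1.82), 3 of which reached 30 UMIs only through the Cre members. In the 30 Cre members with Il1rl1, Arg1, which encodes arginase, was in 1 cell, the sulfotransferase Hs3st1 in 1 and the stem cell factor receptor Kit in 2. Other genes of ILC2 were often present in these members, with Rora in 29, Cxcr6 in 16 and Areg in 15. In cells with Il1rl1 and Gata3 but no CD3 UMI, of which there were 110 control and 399 Cre cells, Arg1 was in 63.6% and 62.9%, Hs3st1 in 71.8% and 65.7% and Kit in 65.5% and 63.2%. Rora was in 96% of these 399 Cre cells, Cxcr6 in 79.4% and Areg in 75.9%. Trac was in 26 of the 30 members and Cd28 in 26, but in 2.76% and 5.76% of the 399 Cre cells without CD3. Median depth was 3709 UMIs in the latter and 3900 in the 24 members with both Il1rl1 and Gata3. The members were chosen for CD3 and Cd4 UMIs, and the other cells for Gata3 and the lack of CD3 UMIs. A gap in T cell genes therefore follows in part from the choice, and the source of the Th2 transcripts was not tested. A UMI of any of Trac, Trbc1 and Trbc2 set the groups less apart: it was in 29 of the 30 members, and in 84.5% of the control and 75.2% of the Cre cells without CD3. Those cells were themselves a larger share of the Cre library, at 2.64% against 0.855% of kept cells.

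Tissue residence genes were also higher. Of 10 measured genes 8 passed 1.5-fold upwards and none downwards (relative median 0.78), with 6 of 9 and 0.69 without other lineages. Itga1 and Prdm1 reached 30 UMIs only through the Cre members, and of the 8 other genes 6 were higher. Cxcr6, a receptor that holds T cells in lung and liver, went from 27.2 to 148 CPM (4.45, 3.06 to 6.6). Bhlhe40, a factor needed for T cell cytokine production, went from 95.7 to 363 CPM (3.1, 2.51 to 3.83), and from 72 to 131 CPM in B cells. Rgs1, which dampens chemokine receptor signals, went from 143 to 328 CPM (1.88, 1.56 to 2.27). Cd69, which keeps cells from leaving tissue, went from 62.5 to 119 CPM (1.55, 1.15 to 2.09), and the integrin Itgav (1.86) and the repressor Prdm1 (2.01) were higher too.

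Itga1, the collagen receptor CD49a, went from 7.36 to 69.9 CPM, but 48 of its 59 Cre UMIs came from 2 cells, and its relative fold was 1.77 without other lineages. The orphan receptor Nr4a1 was 1.51 over all members and 1.07 without other lineages. Runx3 and Rgs2 stayed under 1.5-fold. In the CD8 T cells 1 of 12 measured residence genes was higher and 2 were lower (relative median -0.02), with a relative fold of 2.1 for Cxcr6, 0.978 for Bhlhe40 and 0.957 for Rgs1. In the regulatory T cells 6 of 10 were higher and 1 lower (relative median 0.82), beside 16.6% and 13.8% of all 2905 measured genes there. Their relative fold was 5.33 for Cxcr6, 2.29 for Bhlhe40 and 2.58 for Rgs1. No difference between these T cell types was tested.

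**Figure D3:**
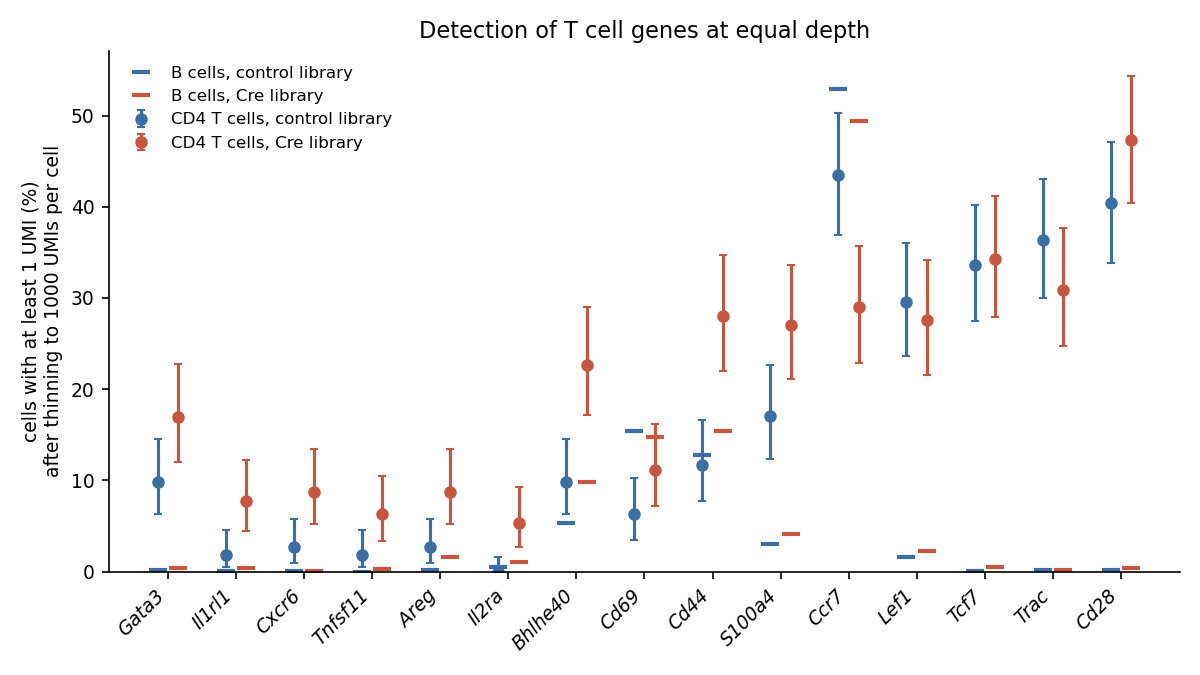
Share of cells with at least 1 UMI of each gene (y axis, percent) after thinning every cell to 1000 UMIs, control in blue and Cre in red. Points with exact 95% binomial intervals are CD4 T cells and bars are B cells. Cxcr6, Il1rl1 and Gata3 are near 0 in B cells, whereas Ccr7, Cd69 and Cd44 are also detected there.

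Genes of naive and recirculating cells were lower for a few members of that list and close to the median gene for most. Of 17 measured genes none was higher and 3 were lower (relative median -0.23), beside 13% and 11.4% of all genes. Without other lineages 2 of 17 were lower, near the 12.1% of all genes there. Ccr7, the lymph node homing receptor, went from 588 to 364 CPM (relative fold 0.506, 0.442 to 0.577), beside 775 and 627 CPM in B cells. Dapl1, a gene of naive T cells, went from 114 to 58.1 CPM (0.416), and the membrane protein Ms4a6b from 476 to 383 CPM (0.657). The last of these did not reach the line without other lineages, at 0.731.

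The factors of the naive state stayed within 1.5-fold. Tcf7 stood at 344 and 399 CPM (0.947, 0.821 to 1.09), Lef1 at 354 and 361 CPM (0.834), the chromatin organiser Satb1 at 718 and 821 CPM (0.934) and the survival receptor Il7r at 458 and 500 CPM (0.891). The egress receptor S1pr1 (0.79) and its regulator Klf2 (0.719) lay lower, within the 1.5-fold line. At 1000 UMIs per cell Ccr7 was detected in 43.5% and 29% of members and Lef1 in 29.6% and 27.5%.

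Each thinned member was then sorted by which genes it showed. These classes were chosen after seeing the data. Cells with Ccr7 or Lef1 but none of the memory genes S100a4, Itgb1, Cxcr6 and Maf made up 45.3% (38.6 to 52.1%) of control and 31.4% (25.1 to 38.2%) of Cre members. Cells with a memory gene only made up 22% (16.7 to 28%) and 36.2% (29.7 to 43.2%). Cells with both kinds made up 10.3% and 12.1%, and cells with neither 22.4% and 20.3%. The members without other lineages gave 45.3% (38.3 to 52.4%) and 33.5% (26.8 to 40.8%) for the first class and 22.2% and 36.8% for the second. The cells of 1 library are not replicates, so these intervals do not show whether the genotypes differ.

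Memory genes alone were seen in 6.45% and 8.46% of B cells, while B cells express Ccr7 themselves. CD8 T cells showed 48.2% and 48.5% in the first class and 15.1% and 15.6% in the second. The share of cells and the level need not move together: S100a4 was detected in 17% and 27.1% of members, but stood at 606 and 672 CPM, a relative fold of 0.905. The residence list had a relative median of 0.51 within members that had a UMI of Ccr7 or Lef1 before thinning (191 control and 143 Cre cells) and 0.58 within those that had none (32 and 65). The Th2 list had 0.18 and 1.28 in the same split, and Il1rl1 had a relative fold of 0.855 within the members with such a UMI.

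**Figure D4:**
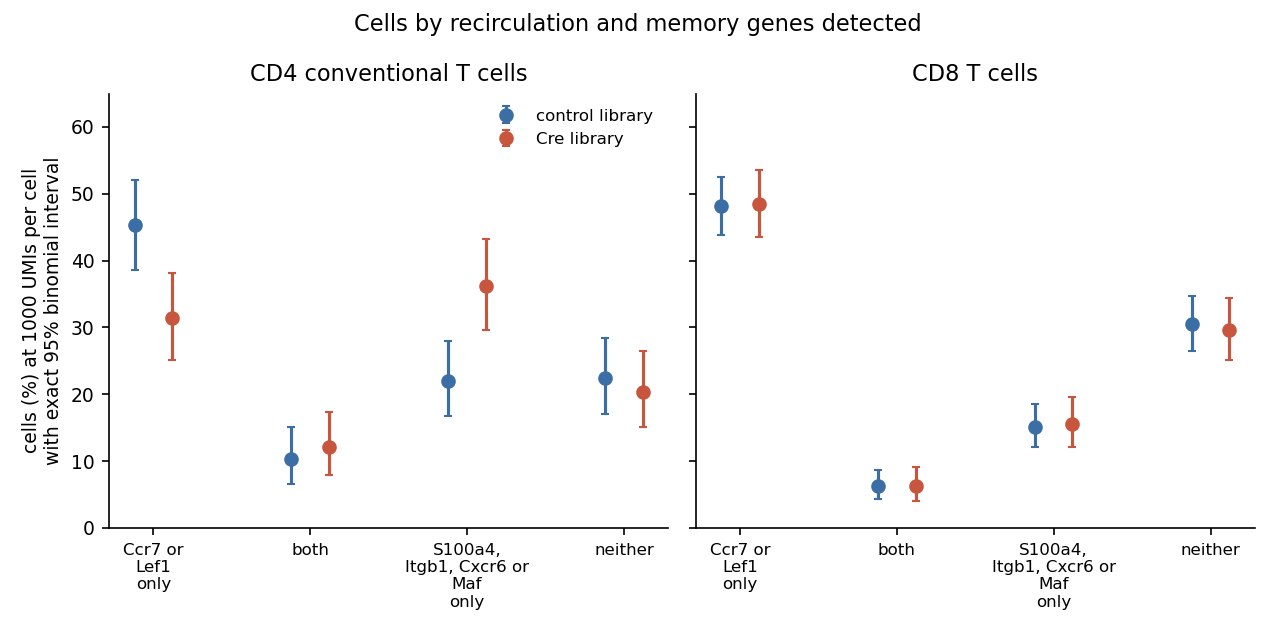
Share of cells (y axis, percent, exact 95% binomial interval) in 4 classes by the genes detected at 1000 UMIs per cell, for CD4 conventional T cells (left) and CD8 T cells (right), control in blue and Cre in red. In the CD4 T cells the first class is 45.3% and 31.4% and the memory-only class 22% and 36.2%.

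Of 24 measured activation and memory genes 6 were higher and 2 lower (relative median 0.21). Prdm1 and Il2ra reached the minimum UMI count only through the Cre members, and of the 22 other genes 4 were higher and 2 lower. Cd44 went from 190 to 363 CPM (1.56, 1.32 to 1.85). Il2ra, the high-affinity IL-2 receptor chain, had 7 UMIs in 7 control and 54 in 20 Cre members, 20 of them in 2 cells (10.2, 4.6 to 26.4). The costimulator Icos went from 400 to 530 CPM (1.08). Rora, which is not in this list but in the Th17 and ILC2 lists, went from 202 to 453 CPM (1.83, 1.56 to 2.14). The galectin Lgals1 (775 and 500 CPM, 0.527) and the LIM protein Crip1 (0.573) were lower, as they were in CD8 T cells (0.483 and 0.557).

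The lists of other helper programmes had lower medians than the Th2 list. In the Th1 list 2 of 11 genes were higher and 1 lower (relative median 0.05). Tbx21, the Th1 factor, had 3 and 14 UMIs, too few to be among them, the cytokine Ifng 17 and 12, and the Th1 chemokine receptor Cxcr3 32 and 18. The chemokine Ccl5 stood at 718 and 780 CPM (0.887). Ccl4 was 3.38 over all members and 0.762 without other lineages. The follicular helper list had 2 of 8 higher and 1 lower (relative median 0.04). The Th17 list had 2 of 5 higher, Rora and the leukotriene B4 receptor Ltb4r1 (13 and 31 UMIs, 3.14), with a relative median of 0.50, and 3 of 5 higher with 0.66 without other lineages.

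In the cytokine and ligand list, which shares 7 of its 22 genes with the Th2 list, 7 of 12 measured genes were higher and none lower. Il4, Il5, Il13 and Csf1 reached 30 UMIs only through the Cre members, and of the 8 other genes 3 were higher. Among the higher was Il2, the T cell growth factor, with 28 and 36 UMIs (1.69). The list's relative median was 0.72, and below that of all genes after thinning, at -0.11. Of the genes typical of regulatory T cells, 5 of 11 were higher although the rule allowed no Foxp3 UMI. Without other lineages 3 of 10 were higher. Il2ra and Ikzf4 reached 30 UMIs only through the Cre members, and of the 9 other genes 3 were higher. Among these was the Helios gene Ikzf2 (68.4 and 158 CPM, 1.88). In the regulatory T cells Ikzf2 stood at 892 and 1068 CPM and Il1rl1 at 176 and 561 CPM. Whether the members include regulatory cells whose Foxp3 was not captured was not tested. The checkpoint receptor Ctla4 stood at 1.38, and at 0.974 within members with a Ccr7 or Lef1 UMI.

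**Figure D5:**
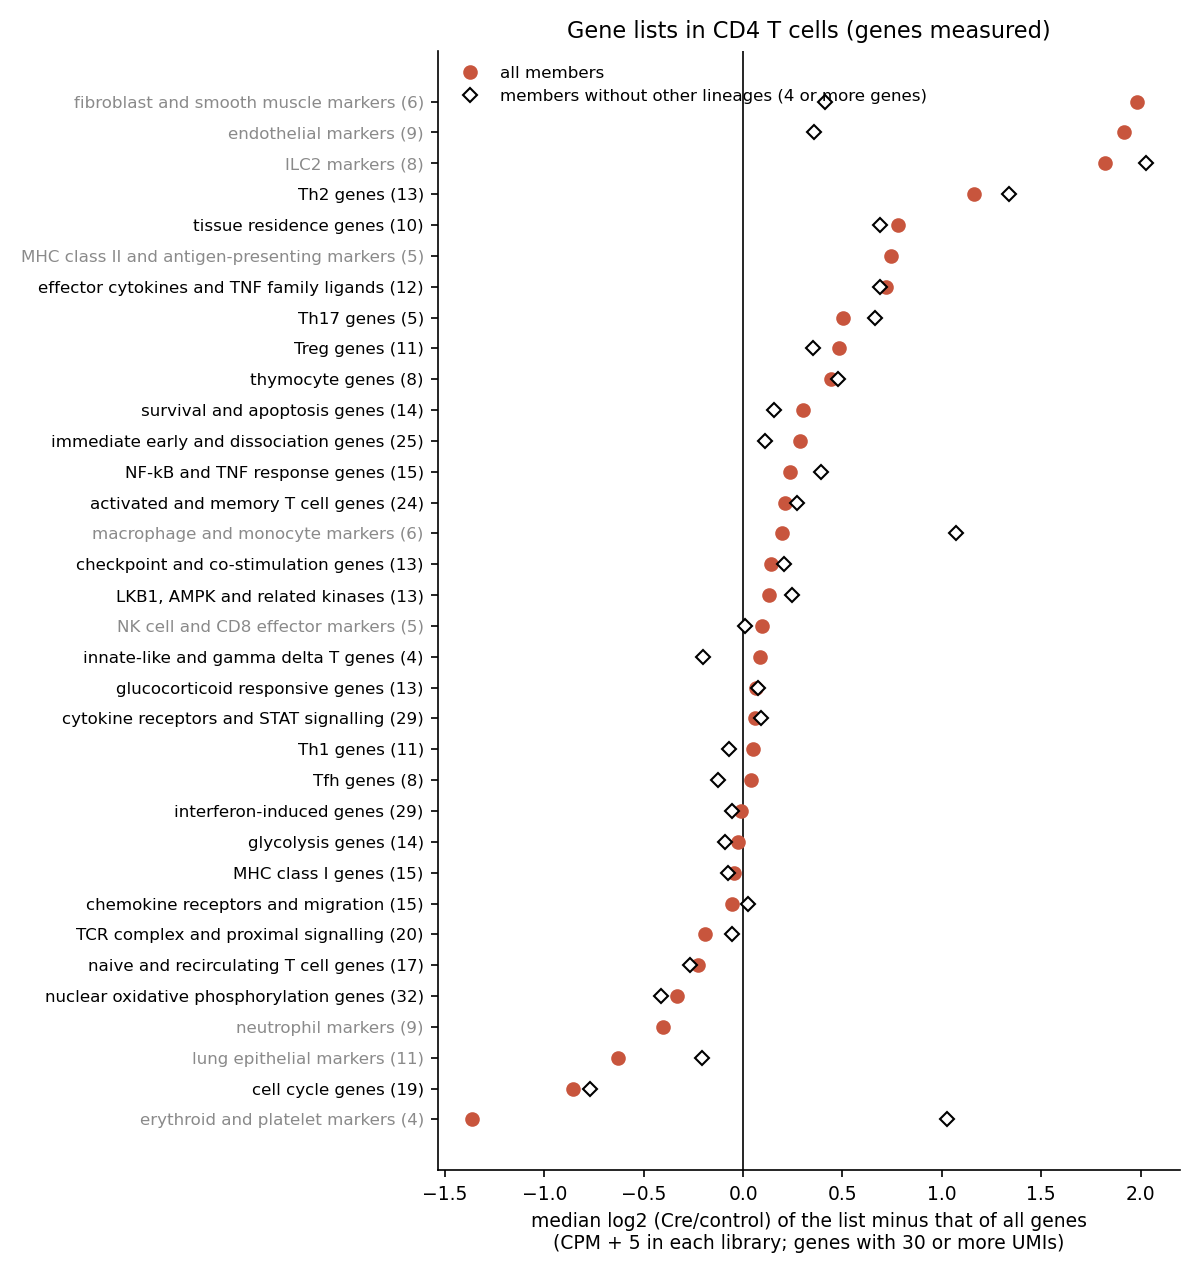
Median log2 difference between Cre and control members over the measured genes of each list, minus that of all genes (x axis), with the number of measured genes in brackets. Filled points are all members, open diamonds members without other lineages where 4 or more genes were measured, and grey names are marker lists of other cell types. Th2 genes lie at 1.16 and 1.34, while endothelial markers lie at 1.92 and 0.36.

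Genes of dividing cells had lower summed levels in the Cre members. Of 19 measured cell cycle genes 12 were lower and 1, the replication factor Mcm2 (32 and 38 UMIs, 1.56), was higher. The list's relative median was -0.86. Tyms, Cdk1, Ccna2 and Ccnb2 reached the minimum UMI count only through the control members, so the minimum itself fixed their direction. Of the 15 other genes 8 were lower and 1 was higher. The topoisomerase Top2a went from 149 to 79.4 CPM (0.434, 0.324 to 0.575) and thymidylate synthase Tyms from 29.4 to 11.9 CPM (0.329). The proliferation antigen Mki67 was 94.2 and 83 CPM (0.72). After thinning, the list's relative median was -0.21. Top2a then stood at 1.31 and Mki67 at 2.09, while Stmn1 stood at 0.56, Birc5 at 0.521, Ube2c at 0.352 and Hist1h1b at 0.138. Cells in which cycle genes took more than 0.5% of UMIs made up 10.3% (6.65 to 15.1%) of control and 8.65% (5.21 to 13.3%) of Cre members.

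The cycling control cells were deeper, with a median of 10706 UMIs and 20 CD3 UMIs against 4506.5 and 5 in the cycling Cre cells. They held 71.9% of the control members' cycle UMIs. Without the cycling cells, which were left out by the genes of the list itself, the list's relative median was 0.02. It was -1.57 over members with a Ccr7 or Lef1 UMI (191 and 143 cells) and 0.15 over those with none (32 and 65).

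Receptor and signalling genes lay near the median gene for the most part. Of 20 measured genes of the T cell receptor list 4 were lower and none higher (relative median -0.19), and 1 was lower without other lineages. Trbc2, a constant region of the beta chain, went from 1182 to 836 CPM (0.578, 0.528 to 0.631), Cd2 from 260 to 210 CPM (0.658) and the receptor Cd27 from 81.7 to 65.2 CPM (0.652). Trac (0.79), Trbc1 (0.827) and Cd28 (1.03) stayed within the line. Trbc1 and Trbc2 are near-identical copies, so the counting of reads between them is uncertain.

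Interferon-induced genes were mixed, with 1 of 29 higher and 4 lower. The DNA and RNA sensor Zbp1 went from 39 to 22.5 CPM (0.472) and Ifi27l2a, a small interferon-induced protein gene, had a relative fold of 0.506 without other lineages, beside 735 and 389 CPM in B cells. None of 32 measured nuclear oxidative phosphorylation genes was higher and 5 were lower (relative median -0.33). Of 14 glycolysis genes 1 was higher and 2 were lower, Gapdh (739 and 595 CPM, 0.657) and Eno1 (0.65).

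Of 25 immediate early and dissociation genes 7 were higher, 3 without other lineages. These 3 were the heat shock genes Hspa1a (16.9 and 81.8 CPM, 3.95), Hspa1b (6.62 and 91.3 CPM, 11.3) and Hsph1 (12.5 and 73.5 CPM, 4.8). All 3 were also higher in B cells, Hspa1a from 35.8 to 69.6, Hspa1b from 18.5 to 70.3 and Hsph1 from 17.4 to 65.2 CPM. The part of handling in the results above was not tested.

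The genes furthest apart by the lower bound of their interval included many genes of other cell types. The 15 highest were Calca, Ccl21a, Hspa1b, Jcad, Scn7a, Il2ra, Cdh5, Cd93, Tcf4, Itga1, Pcolce2, Irf8, Tnfsf11, Cldn5 and Sema3c. Of the 169 Cre UMIs of Cdh5, the endothelial cadherin, 129 came from 2 cells, and its relative fold was 6.35 with and 1.76 without other lineages. The tight junction gene Cldn5 had 107 of 149 UMIs in 2 cells (4.78 and 1.6), and Pcolce2, a collagen processing gene, 66 of 70 (7.09 and 0.825). Ccl21a, the lymphatic ligand of Ccr7, had 210 of 211 Cre UMIs in 2 cells. Its symbol belongs to a family of near-identical copies, so its count is uncertain. Without other lineages Jcad stood at 4.04, Scn7a at 2.02 and Sema3c at 1.58.

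The 15 lowest were Scgb1a1, Sec14l3, Hist1h1b, Ube2c, Ager, H2afx, Birc5, Stmn1, Hmgn2, Gprc5a, Hmgb2, Gzmb, Ubb, Pycard and Tmsb10. Scgb1a1, the club cell secretoglobin, had 41042 of 42921 control UMIs in 2 cells, with a relative fold of 0.0213 and 0.643 without other lineages. Ager, of alveolar type 1 cells, was 0.243 and 1.32, and Sec14l3 was 0.047 and 0.481. Stmn1, Birc5, Ube2c, H2afx and Hist1h1b belong to dividing cells. Gzmb, the cytotoxic granzyme, had 76 and 18 UMIs (0.312), and 0.309 in CD8 T cells. In the members 31 of the 76 control UMIs of Gzmb came from 2 cells. Its relative fold there was 0.247 without other lineages but 0.967 after thinning. Pycard, the inflammasome adaptor, went from 235 to 124 CPM (0.433) and the actin-binding Tmsb10 from 4054 to 2561 CPM (0.516), the latter in 223 of 223 control and 205 of 208 Cre members.

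The same ranking without other lineages shared 4 of 15 higher genes (Calca, Ccl21a, Il2ra and Tnfsf11) and 11 of 15 lower genes with this one. The values of some of its other higher genes follow. Fgl2, a secreted suppressor of immune cells, had a relative fold of 7.9 (4.68 to 14.1) with 17 and 93 UMIs. Cxcr6 stood at 5.03 (3.39 to 7.66) and Il1rl1 at 4.67 (2.97 to 7.55). The chemokine receptor Ccr2 went from 46.2 to 156 CPM (2.86), the IL-10 receptor chain Il10ra from 17 to 83.8 CPM (4.17), beside 69.3 and 94.8 CPM for Il10ra in B cells. Among the rest was the activation-induced receptor Nr4a3, which went from 39.6 to 152 CPM (3.23), beside 8.6 and 50.7 CPM for Nr4a3 in B cells. The others were Hsph1, Bhlhe40, Hlf, Raph1 and Frmd4b, from 3.38 to 5.56.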

How the data were processed

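Total lung cells of 2 libraries were analysed. The authors deposited raw UMI counts per gene and barcode, whole numbers that were not normalized, per the file headers. Cell Ranger 3.1.0, STAR and the mm10 build are named per the submitters' processing notes, while version 3.0.0 of the software stands in the header of each matrix. Which tool did what, with which filters and annotation, is not given in the sources used here. The matrices hold 13587 control and 16821 Cre barcodes with 74219499 and 81598779 UMIs. Cells with at least 200 genes, 500 UMIs and at most 20% mitochondrial UMIs were kept. Free RNA was not subtracted. The members and gene lists were chosen with earlier results of these data known.

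UMIs were summed over members per library and scaled to CPM, and ratios carry exact conditional 95% intervals (scipy 1.17.1). Shares carry Clopper-Pearson intervals after thinning to 1000 UMIs, which left out 1 Cre member. List medians are of log2 of CPM plus 5, over genes with at least 30 UMIs, without the genes of the rule. Named genes needed at least 50 UMIs, 50 CPM in the higher library and there 0.5 of the CPM of the other kept cells, and the 15 with the interval bound furthest from 1 in each direction were named. Mitochondrial, ribosomal, haemoglobin, immunoglobulin, receptor, predicted, sex-linked and rule genes were not ranked. Scrublet (scanpy 1.11.5) marked doublets. Coordinates are from GENCODE M21 (GRCm38), which matched 31011 of 31053 genes. The fold computation was tested on simulated data. No test was used, since each genotype is 1 library. Results for 2 genes of the lists are not reported here, and the lists were read without them.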

Additional observations from a re-analysis of the deposited data

How the results depend on the processing

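No paired analysis was possible because each genotype is 1 library. The share of members kept its direction under 8 of 9 alternatives and turned to a log2 ratio of 0.0016 without the condition on Cd4. Among those that kept it, the interval of the ratio included 1 with CD3 cells (0.756 to 1.11) or Ptprc cells (0.696 to 1.03) as denominator. It also included 1 in cells thinned to 1000 UMIs before the rule (0.497 to 1.29). The counts of genes higher and lower in Cre moved by over 1.5 times in members thinned to 1000 UMIs (283 and 221), in members with no UMI of Ccr7 or Lef1 (328 and 242), with at least 100 UMIs per gene (240 and 215), with at least 1 UMI per gene (3543 and 3716) and with the CPM ratio as it stands (1830 and 305), where fewer or more genes or another centre enter; 8 other alternatives left each count within 1.5 times. Among list medians, 332 of 418 alternative values stayed within the log2 step of 0.3 and 7 turned among the lists whose median lay at least 0.3 from that of all genes: effector cytokines to -0.11 when thinned; cell cycle genes to 0.15, fibroblast markers to -0.39 and erythroid markers to 4.66 in members with no UMI of Ccr7 or Lef1; cell cycle genes to 0.0178 without cycling cells; fibroblast markers to -0.22 without innate-like genes; and erythroid markers to 1.03 without other lineages. Another 44 values, of 17 lists whose median lay nearer to that of all genes, changed side too. The cause was not tested.

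Of 922 alternative relative folds of the named genes, 18 turned among genes whose interval excluded 1, and 17 more, of 6 genes, changed side of 1 where it did not. With no Ccr7 or Lef1 UMI they were Pcolce2 0.816, Mki67 1.82, Top2a 1.21 and Tyms 3.26; with such a UMI Il1rl1 0.855, Lef1 1.08, Ccl5 1.03 and Ctla4 0.974; thinned, Trbc1 1.01, Mki67 2.09 and Top2a 1.31; without cycling cells Stmn1 1.01 and Mki67 2.04; without other lineages Pcolce2 0.825, Ager 1.32 and Ccl4 0.762; without innate-like genes Pcolce2 0.12; and with no Il1rl1 UMI Il5 0.97. Alternatives without other lineages, cycling cells or Il1rl1 cells, and the split by Ccr7 or Lef1, were chosen after seeing the data, the last in place of a planned split that was not run. The 32 control members with no Ccr7 or Lef1 UMI held few UMIs, which limits that split.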

Other observations

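Further gene lists were read in the members, beside shares of 13% higher and 11.4% lower over all genes. Of 15 NF-kB and TNF response genes 4 were higher and 1 lower: the apoptosis inhibitor Birc3 went from 72.8 to 142 CPM (relative fold 1.59) and the activation marker Cd83 from 24.3 to 54.5 CPM (1.83), while Relb had 42 and 17 UMIs (0.533). Of 14 survival and apoptosis genes 5 were higher (2 of 13 without other lineages), including the survival gene Bcl2l1 (16.9 and 43.8 CPM, 2.12). The death-promoting Bcl2l11 was lower (146 and 107 CPM, 0.598). Bbc3 and Pmaip1 reached 30 UMIs only through the Cre members, and of the 12 other genes 3 were higher and 1 lower. Of 29 cytokine receptor and STAT genes 4 were higher and 2 lower, the former near the share of all genes. Among the higher was Cish, a feedback inhibitor of cytokine signals (38.3 and 102 CPM, 2.18). Of 15 chemokine receptor and migration genes 3 were higher and 2 lower. Among the higher was the gut and thymus receptor Ccr9 (4 and 31 UMIs, 10.2), which reached 30 UMIs only through the Cre members. Of the 14 other genes 2 were higher and 2 lower. Without other lineages, where Ccr9 had under 30 UMIs, 2 of 14 were higher. Of 13 checkpoint genes 3 were higher, including the inhibitory receptor Pdcd1 (18 and 39 UMIs, 2.85). Pdcd1 and Tnfrsf9 reached 30 UMIs only through the Cre members, and of the 11 other genes 1 was higher. Of 15 MHC class I genes 2 were lower and 1 was higher, near or below the shares of all genes. The lower were the immunoproteasome subunits Psmb8 (266 and 197 CPM, 0.603) and Psmb9 (124 and 101 CPM, 0.662). The genes named here were chosen from these lists after their values were seen.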
